A study of Mus musculus with 6 samples.

Results

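The 8 genes of thymidylate synthesis and the cytosolic folate cycle described here are Tyms, Shmt1, Mthfd1, Mtr, Fpgs, Ggh, Slc19a1 and Atic. They were chosen by symbol, and all 8 were found among the 41325 gene rows of each library. The libraries came from female ICR mice, an outbred stock, 10 weeks old when bought and given 7 days to settle. All received intraperitoneal 5-fluorouracil (5-FU), 20 mg/kg daily, 2 times weekly for 3 weeks, and ate the same commercial chow, CRF-1. The elemental diet group (3 libraries) also received Elental, a liquid formula with amino acids as its nitrogen source, by mouth at 0.8 mL and 1.6 kcal per day, in 2 doses a day on 5 days a week for 3 weeks. The saline group (3 libraries) received the same volume of saline on the same schedule. No group without 5-FU was analysed here, so each comparison is elemental diet against saline under 5-FU.

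Folate carries one-carbon units for the synthesis of thymidylate and purines and for the remethylation of homocysteine to methionine. Thymidylate synthase converts dUMP to dTMP and in that step oxidises methylenetetrahydrofolate to dihydrofolate, which must be reduced again before it can carry another unit. A metabolite of 5-FU, FdUMP, forms a stable complex with thymidylate synthase and folate, which is why the enzyme is known as the main target of the drug. Dividing cells draw most heavily on this cycle, since DNA synthesis consumes both thymidylate and purines.

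Library totals were 29053287 to 33073125 reads assigned to genes. Salivary gland is the tissue given in the labels, whereas the extraction protocol speaks of fibroblasts and keratinocytes. Of 20 salivary gland marker genes 5 (Smgc, Pip, Bpifa1, Prb1 and Dcpp1) had no read in any library. The summed level of the 20 was low in both groups: 14.5 ± 2.99 CPM under elemental diet and 31.4 ± 0.961 CPM under saline (CPM, reads per 1000000 scaled reads; SD, n = 3). The groups differed across most of the transcriptome: edgeR's quasi-likelihood test called 78.1% of the 18303 genes it was run on at a Benjamini-Hochberg adjusted p of 0.05, 38.0% higher and 40.2% lower with elemental diet. Whether the 3 libraries of a group come from 3 different mice is not stated, so the p-values given here speak only to variation among the libraries sequenced, which may be technical.

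Of the 8 genes 6 were called higher with elemental diet (Tyms, Mthfd1, Slc19a1, Fpgs, Atic and Mtr), 1 was called lower (Shmt1) and 1 was not called (Ggh). These 7 calls of 8 stand beside the 78.1% of all tested genes that were called, so being called is not in itself particular to these genes. All 6 that rose were also past a 1.5-fold minimum (edgeR's glmTreat), where 50.8% of all tested genes were called and 24.2% were called higher. The median log2 fold change was 1.52 over the 8 genes and -0.08 over all genes tested. In bulk RNA, fewer cells of a type and less RNA per cell cannot be told apart.

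Tyms, which encodes thymidylate synthase (GRCm38 chr5:30058202-30073617, minus strand, ENSMUSG00000025747), changed most. Its level was 159, 156 and 162 CPM in the elemental diet libraries and at 10.1, 9.31 and 10.1 CPM in the saline libraries. The lowest elemental diet library was therefore far above the highest saline library, and the spread inside each group was small. The rise was 16.2-fold (95% interval 14.8 to 17.7; log2 fold change 4.02, SE 0.06, adjusted p = 4.2e-15 in edgeR), ranking 332 from the largest rise among the 18303 genes tested. It rested on 4148 to 4588 reads per elemental diet library and 310 to 349 per saline library.

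**Figure D1:**
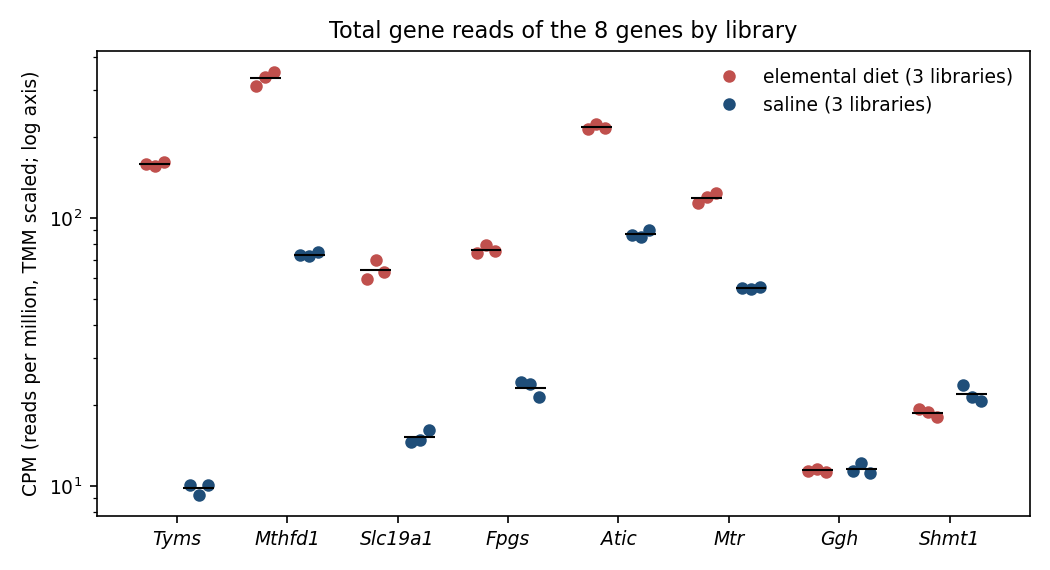
Level of each of the 8 genes in every library, in CPM on a log axis, with 1 point per library and the group mean marked; elemental diet and saline are coloured separately. The Tyms groups lie farthest apart (156 to 162 against 9.31 to 10.1 CPM), while the Ggh groups overlap.

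The stretches just upstream of 3 of these genes are shown because they span the range of response: Tyms, with the largest rise, Mtr, with the smallest rise that was called, and Shmt1, the 1 gene called lower. They are taken from RefSeq's table for GRCm38.p6, from the 250 bases before each annotated start, on the gene's own strand from 5′ to 3′, without bases that lie in annotated exons. Capitals mark the E-box CACGTG, the GC box (GGGCGG, or CCGCCC on the other strand) and the CCAAT box (CCAAT, or ATTGG on the other strand). The windows are chr5:30073626-30073875 for Tyms, chr13:12258114-12258363 for Mtr and chr11:60811266-60811466 for Shmt1, all on the minus strand.
Tyms: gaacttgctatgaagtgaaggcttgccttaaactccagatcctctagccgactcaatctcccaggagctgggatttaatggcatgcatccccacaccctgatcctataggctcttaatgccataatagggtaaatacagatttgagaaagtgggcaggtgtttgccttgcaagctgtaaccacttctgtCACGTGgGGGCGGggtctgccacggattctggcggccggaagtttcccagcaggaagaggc
Mtr: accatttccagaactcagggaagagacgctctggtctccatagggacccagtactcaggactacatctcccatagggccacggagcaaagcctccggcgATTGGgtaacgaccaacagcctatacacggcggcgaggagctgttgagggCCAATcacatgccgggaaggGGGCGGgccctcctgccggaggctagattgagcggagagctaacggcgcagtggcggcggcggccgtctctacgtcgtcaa
Shmt1: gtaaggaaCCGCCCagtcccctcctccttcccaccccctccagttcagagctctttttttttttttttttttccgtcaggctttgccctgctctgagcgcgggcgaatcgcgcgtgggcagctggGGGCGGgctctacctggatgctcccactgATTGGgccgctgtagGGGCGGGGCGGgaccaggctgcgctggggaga
RefSeq's table held an entry for 7 of the 8 genes (none for Ggh). Motifs were counted over the full 250 bases before each start, exon bases included, in these genes as in all windows of the table, so some matches lie wholly or partly in exon bases (among them both motifs of Mthfd1, whose window is all annotated exon, and the GC boxes of Fpgs). A GC box was present in 7 of 7 genes, against 32.7% of the 32851 windows in the table, and a CCAAT box in 5 of 7, against 33.9%. A gene was counted if any of its windows held the motif, whereas the percentages are per window. The 7 genes have 8 windows, because Slc19a1 has a further one, which holds no GC box. The E-box was present in 2 of 7, in Tyms 61 bases before the start and in Atic partly in exon bases, against 6.02% of windows. None of 4 spellings of the E2F motif (TTTGGCGC, TTTCCCGC, TTTCGCGC, TTTGCCGC; both strands) was in these windows, and 1.86% of all windows held at least 1. Shmt1 and Mtr both hold a GC box and a CCAAT box. Whether any of these motifs bears on the responses was not tested. A match describes the letters in a window and does not show a bound site.

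The enzymes that move one-carbon units between folate forms came next. Mthfd1 encodes the trifunctional C1-tetrahydrofolate synthase, which interconverts formyl, methenyl and methylene folates (chr12:76255298-76319803, plus strand, ENSMUSG00000021048). Its elemental diet libraries held 311, 335 and 351 CPM and its saline libraries 72.6, 72.2 and 74.6 CPM. The groups did not overlap, and the rise was 4.55-fold (95% interval 4.19 to 4.94; log2 fold change 2.19, SE 0.05, edgeR adjusted p = 2.0e-13).

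Shmt1, the cytosolic serine hydroxymethyltransferase that makes methylenetetrahydrofolate from serine (chr11:60788104-60811718, minus strand, ENSMUSG00000020534), went the other way by a small amount. Levels of 19.5, 18.9 and 18.1 CPM in the elemental diet libraries compared with 24.0, 21.5 and 20.8 CPM in the saline libraries. The gap between the groups was narrow, although no library crossed it. Shmt1 fell by 0.23 on the log2 scale (SE 0.08, edgeR adjusted p = 0.0217), which is 1.17-fold. The call did not hold when only exon reads were counted (-0.09, adjusted p = 0.393), with RLE scaling (-0.19, adjusted p = 0.0526), with DESeq2 (-0.19, adjusted p = 0.0971), without elemental diet replicate 3 (-0.20, adjusted p = 0.0609) or without saline replicate 1 (-0.18, adjusted p = 0.0890).

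Mtr encodes methionine synthase, which passes the methyl group of methyltetrahydrofolate to homocysteine with cobalamin as cofactor (chr13:12182712-12258113, minus strand, ENSMUSG00000021311). The elemental diet libraries reached 113, 120 and 124 CPM, and the saline libraries 54.8, 54.3 and 55.3 CPM. All elemental diet libraries were above all saline libraries, by 2.18-fold on average (95% interval 2.01 to 2.35; log2 fold change 1.12, SE 0.05, edgeR adjusted p = 1.0e-10).

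Atic carries out the last 2 steps in the synthesis of the purine nucleotide IMP, the first of which consumes formyltetrahydrofolate (chr1:71557150-71579631, plus strand, ENSMUSG00000026192). Elemental diet libraries were at 216, 225 and 217 CPM; saline libraries were at 86.4, 85.0 and 90.1 CPM. The rise was 2.51-fold (95% interval 2.34 to 2.70; log2 fold change 1.33, SE 0.05, edgeR adjusted p = 8.2e-12), with no overlap between the groups.

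The remaining genes govern how folate enters cells and is retained there. Slc19a1 encodes the reduced folate carrier of the plasma membrane (chr10:77032241-77061002, plus strand, ENSMUSG00000001436). Values of 59.1, 69.8 and 63.1 CPM under elemental diet faced 14.6, 14.9 and 16.2 CPM under saline, with no overlap. It rose 4.20-fold (95% interval 3.75 to 4.70; log2 fold change 2.07, SE 0.08, edgeR adjusted p = 9.4e-12). Slc19a1 shares 8825 bases with Col18a1 on the opposite strand, and since no source used here gives the strand setting of the counting, reads of the pair cannot be fully told apart. Col18a1 itself had fewer reads with elemental diet (1044, 1144 and 1006) than with saline (1746, 1896 and 1858).

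Fpgs encodes folylpolyglutamate synthase, which adds the glutamate tail that keeps folates inside the cell (chr2:32682609-32704145, minus strand, ENSMUSG00000009566). Under elemental diet its level was 74.2, 79.7 and 75.1 CPM, and under saline 24.4, 24.1 and 21.5 CPM. The groups were well separated, with a 3.27-fold rise (95% interval 2.97 to 3.60; log2 fold change 1.71, SE 0.06, edgeR adjusted p = 1.2e-11). It shares 61 bases with Eng on the opposite strand, and Shmt1 shares 184 bases with Smcr8 in the same way.

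Ggh encodes gamma-glutamyl hydrolase, the lysosomal enzyme that removes that tail (chr4:20042052-20066750, plus strand, ENSMUSG00000073987). The elemental diet libraries gave 11.4, 11.6 and 11.3 CPM and the saline libraries 11.4, 12.3 and 11.2 CPM, so the groups overlapped. No difference was called (fold 0.987, 95% interval 0.847 to 1.15, log2 fold change -0.02, SE 0.10, edgeR adjusted p = 0.867). The interval allows a rise of up to 1.15-fold and a fall to a fold of 0.847. The direction depended on the scaling: Ggh was called lower with upper quartile scaling (-0.29, adjusted p = 0.0183), with library totals alone (-0.33, adjusted p = 0.0104) and with limma on the deposited TPM (-0.31, adjusted p = 0.00110), and stood at 0.02 (log2) with RLE scaling.

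**Figure D2:**
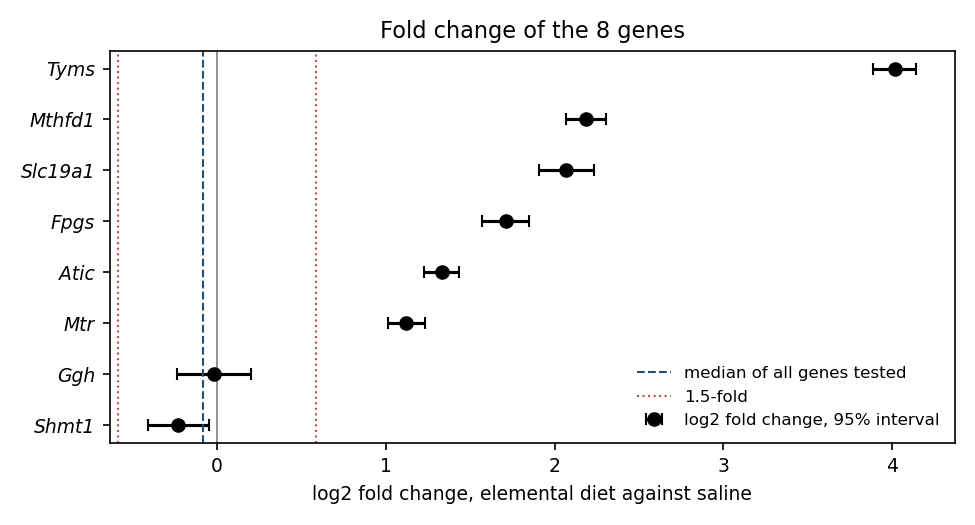
Log2 fold change of each gene, elemental diet over saline, with its 95% interval from the edgeR fit; the dashed line is the median of all tested genes (-0.08) and the dotted lines mark a 1.5-fold change either way. Tyms stands at 4.02, 5 genes lie between 1.12 and 2.19, and Ggh and Shmt1 lie near 0.

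Fpgs and Ggh act in opposite directions on the folate tail, and the number of Fpgs reads per Ggh read was compared within each library, a ratio that no library scaling can alter. It was 6.51, 6.85 and 6.62 with elemental diet and 2.14, 1.96 and 1.92 with saline, a 3.32-fold difference (1.73 on the log2 scale). The ratio of each gene to Tyms was treated likewise. Relative to Tyms, with elemental diet Mthfd1 was lower by a log2 difference of -1.83, Slc19a1 by -1.95, Fpgs by -2.31, Atic by -2.69, Mtr by -2.90, Ggh by -4.04 and Shmt1 by -4.25. The groups did not overlap in any of these 8 ratios, and the Tyms share was the larger with elemental diet in each of the 7 that hold Tyms. An exact two-sided permutation test gave p = 0.1 for each, which is the smallest that 20 arrangements of 3 against 3 libraries allow (Benjamini-Hochberg adjusted 0.1). The directions of these ratios follow from the fold changes given above, in which Tyms rose most, and are not separate support. How many other genes would separate from Tyms in this way was not counted.

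Levels of different genes were compared in TPM, which is corrected for the annotated exon length of each gene. That length was 6089 bases for Tyms and ran from 1965 (Ggh) to 8524 (Mtr). A gene whose transcripts are shorter than this length is placed too low, and which transcripts were present was not examined. The order given here and the shares of the summed TPM rest on these lengths. With saline, Tyms was the lowest of the 8 at 4.74 ± 0.118 TPM (SD, n = 3) and Mthfd1 the highest at 44.2 ± 0.334. With elemental diet Mthfd1 was again the highest at 175 ± 9.03 TPM, Atic followed at 70.2 ± 1.42, and Tyms came after it at 60.8 ± 1.16. Neighbours in this order that overlapped were Mtr and Slc19a1 with elemental diet (32.5 ± 1.21 and 31.6 ± 2.64 TPM) and Ggh and Fpgs with saline (17.1 ± 0.640 and 16.5 ± 1.21 TPM).

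Summed over the 8 genes, the level was 441 ± 10.1 TPM with elemental diet and 158 ± 0.785 TPM with saline. TPM carries no TMM factor, so group differences in TPM are on another scale than the folds given above. Tyms was 12.8-fold higher in TPM and 16.2-fold higher in the edgeR fit. In summed CPM the 8 genes were 3.37-fold higher. Tyms made up 13.8% of this sum with elemental diet and 3.00% with saline, and Mthfd1 39.6% and 27.9%. The shares of Atic (15.9% and 22.5%), Mtr (7.37% and 12.1%), Ggh (3.10% and 10.8%) and Shmt1 (2.18% and 7.98%) were smaller with elemental diet.

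**Figure D3:**
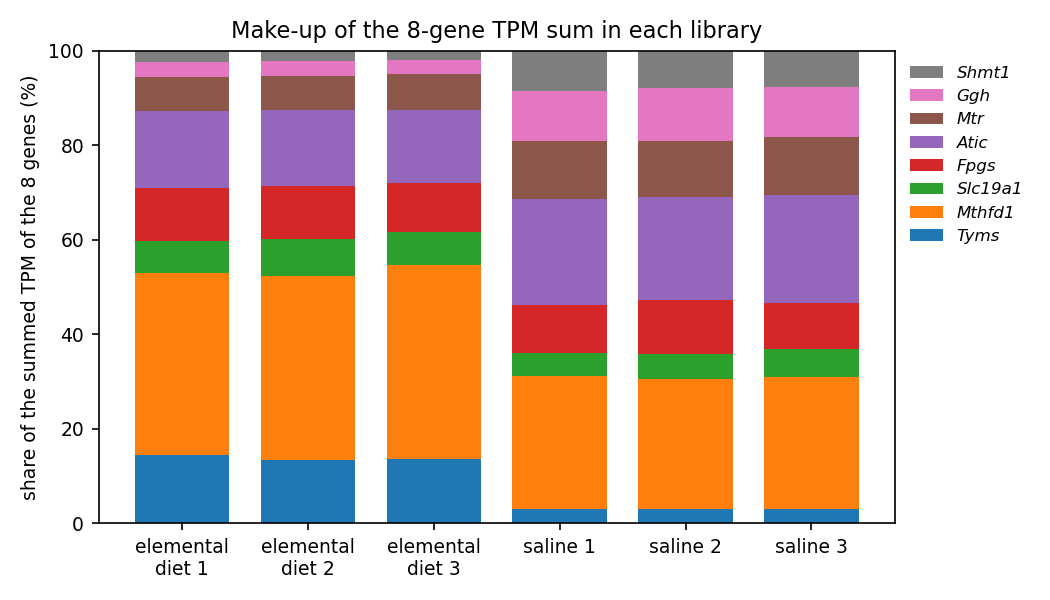
Share of the summed TPM of the 8 genes that each gene makes up, in percent, as 1 stacked bar for each of the 6 libraries. The Tyms segment averages 3.00% in the saline bars and 13.8% in the elemental diet bars, and the Ggh segment 10.8% and 3.10%.

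The files also give the reads of each gene that lie in introns, which the choice of genes did not use. Across all genes introns took 8.39% to 8.82% of reads with elemental diet and 13.7% to 14.4% with saline. Each of the 8 genes had a lower intron share with elemental diet, with no overlap between groups, as did the pooled share of all genes. How many other single genes separate in this way was not counted, so the pattern is not shown to be particular to these 8. Mthfd1 had 11.8%, 11.4% and 10.9% with elemental diet and 23.3%, 23.3% and 23.6% with saline. Fpgs had 8.97% ± 0.236 and 23.1% ± 4.46 (SD, n = 3), Slc19a1 12.7% ± 1.06 and 27.6% ± 4.27, and Tyms 11.4% ± 0.566 and 16.0% ± 2.31. Because of the overlap with Col18a1, the intron reads of Slc19a1 may include Col18a1 reads, which was not tested. Atic had the lowest share in both groups, 2.78% ± 0.510 and 7.12% ± 0.723. The exact two-sided permutation test again gave p = 0.1 for every gene, the smallest possible, with adjusted values of 0.1.

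Counted apart, exon and intron reads gave unequal folds. For Tyms the level was 17.1-fold higher in exon reads and 11.5-fold higher in intron reads, so both classes rose. For Atic the exon reads were 2.63-fold higher and the intron reads stood at a fold of 0.982. Shmt1 had an exon fold of 1.01 and was 1.74-fold lower in intron reads, and Ggh had an exon fold of 1.06 and was 1.62-fold lower in intron reads.

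**Figure D4:**
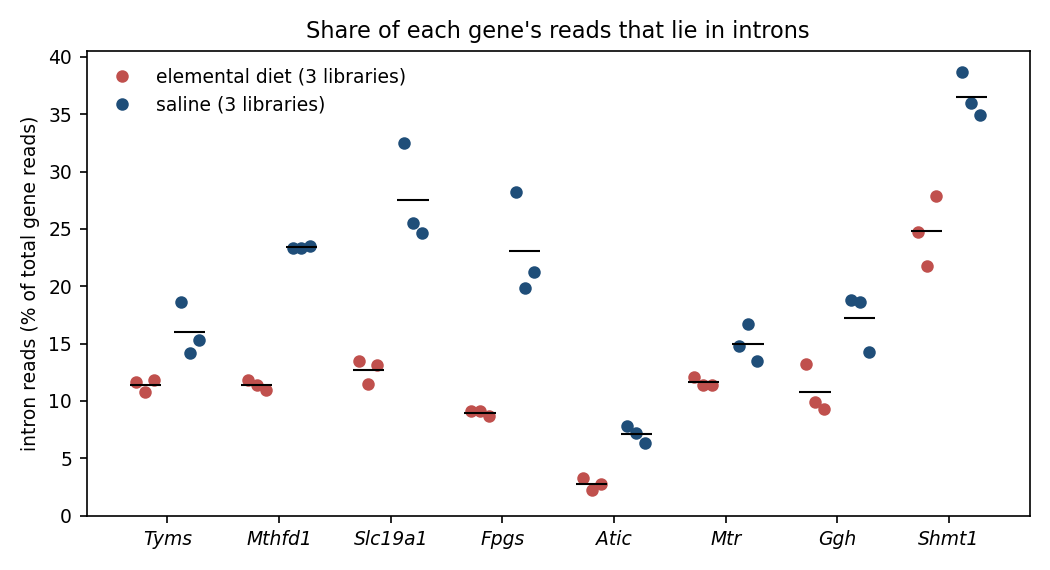
Percent of each gene's total reads that lie in introns, with 1 point per library and the group mean as a line; elemental diet and saline are coloured separately. In each of the 8 genes every elemental diet library lies below every saline library, with Atic lowest (2.78% and 7.12%) and Shmt1 highest (24.8% and 36.5%). The pooled share of all genes, not drawn, separates the groups in the same direction.

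Markers of other cell types moved between the groups as well. All 20 cell division genes rose and their summed level was 8822 ± 611 CPM with elemental diet (range 8217 to 9440) and 527 ± 17.7 with saline (514 to 547), a 16.7-fold difference. All 15 markers of red cell precursors rose, from 3644 ± 919 to 46956 ± 696 CPM in sum. All 10 B cell markers fell, from 6691 ± 142 to 960 ± 31.8 CPM in sum, and all 10 T cell markers fell, from 600 ± 68.3 to 82.5 ± 4.32 CPM. The part of these cell types in the changes of the folate genes was not tested.

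Set against the summed cell division markers of the same library, Tyms no longer separated the groups. It came to 19.3, 17.7 and 17.2 CPM per 1000 CPM of these markers with elemental diet and 19.6, 17.9 and 18.4 with saline. Single markers in that sum rose from 10.0-fold (Pcna) to 38.9-fold (Ccna2), so this result depends on which markers are summed. Tyms was not set against single markers. The other 7 genes were lower per unit of these markers with elemental diet, without overlap. The summed markers rose 16.7-fold, so any gene that rose clearly less must come out lower on this scale. Since Tyms ranked 332 from the largest rise among 18303 genes, nearly all tested genes rose less than Tyms. Being lower per unit of these markers is therefore not particular to these 7 genes. Mthfd1 came to 37.7 and 139 per 1000 CPM, Atic to 24.9 and 165, Fpgs to 8.68 and 44.4, and Shmt1 to 2.14 and 42.0.

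Genes of the same pathway beyond these 8 were taken from lists of 57 symbols, of which 51 had enough reads to be tested. Of these 34 were called higher, 11 lower and 6 neither, which is 88.2% called against 78.1% of all genes, and their median log2 fold change was 0.81. Past the 1.5-fold minimum 27 were higher and 8 lower. Among all tested genes 38.0% were called higher and 40.2% lower. Past that minimum, 50.8% of all tested genes were called and 24.2% were called higher. The counts of each list below are to be read beside the same shares. Gart is in the lists of both purine synthesis and cytosolic folate enzymes, and Mtrr in those of both cytosolic folate enzymes and the methionine cycle; each is counted once here.

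In thymidylate supply 5 of 6 genes rose and 1 fell (median log2 fold change 1.82; 4 rose with upper quartile scaling or library totals). Dut, the dUTPase that provides dUMP, was 16.1-fold higher (557 ± 5.65 against 34.6 ± 2.15 CPM, SD, n = 3). Tk1, the cytosolic thymidine kinase of the salvage route, was 7.76-fold higher, but 36.0% of its reads were unique to it, and with unique reads alone its log2 fold change was 4.11 in place of 2.96. Tk2, the mitochondrial thymidine kinase, was 3.66-fold lower (29.5 ± 0.391 against 108 ± 3.35 CPM).

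Among cytosolic folate enzymes and carriers 5 of 9 rose, 1 fell and 3 were not called (4 rose and 2 fell with upper quartile scaling or library totals). Folr1, a folate receptor, was 20.1-fold higher at a low level (5.86 ± 0.713 against 0.288 ± 0.149 CPM, SD, n = 3). Gart, which uses formyl folate in purine synthesis, was 2.72-fold higher.

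Of 11 mitochondrial folate genes 7 rose and 4 fell (median 0.77). Mthfd2, the methylene folate dehydrogenase, was 5.53-fold higher, Shmt2, the mitochondrial counterpart of Shmt1, 3.30-fold higher, and Dld, the shared lipoamide dehydrogenase of the glycine cleavage system, 2.46-fold higher. Shmt2 thus rose where its cytosolic counterpart was called slightly lower. In de novo purine synthesis 10 of 12 rose, 1 fell and 1 was not called (median 1.51; 9 rose and 2 fell with upper quartile scaling or library totals). Paics was 4.30-fold, Pfas 3.53-fold and Impdh2 3.00-fold higher.

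In the methionine cycle and cobalamin list 9 of 15 rose, 4 fell and 2 were not called (median 0.60). Mat2a, which makes S-adenosylmethionine, was 2.09-fold higher and Mmadhc, a cobalamin trafficking protein, 2.27-fold higher. Lmbrd1, the lysosomal cobalamin exporter, was 2.28-fold lower (45.2 ± 3.46 against 103 ± 2.72 CPM, SD, n = 3). The direction of Aldh1l1 and Prps2 depended on the scaling, as it did for Ggh.

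**Figure D5:**
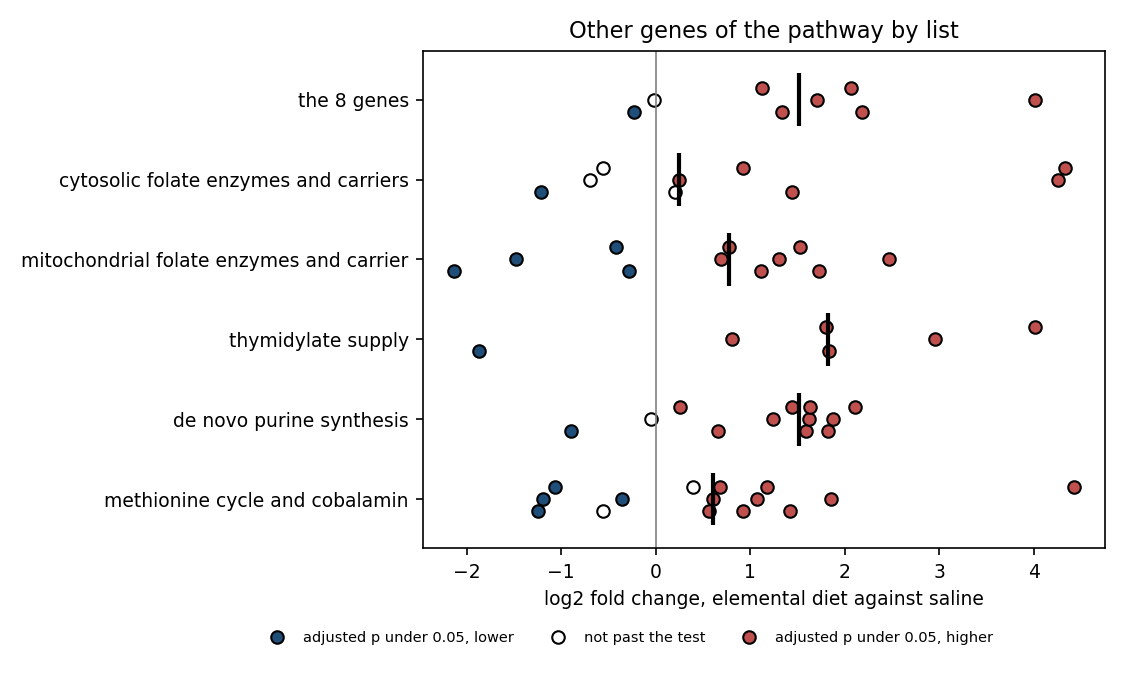
Log2 fold change, elemental diet over saline, of the 8 genes (top row) and of the other tested pathway genes by list; red points were called higher and blue points lower by the edgeR test, open points were not called, and a black line marks the median of each list. The medians of thymidylate supply (1.82) and purine synthesis (1.51) lie above that of the methionine and cobalamin list (0.60).

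The genes whose profile over the 6 libraries lay closest to that of Tyms were Shcbp1 (distance 0.0801), Dut (0.115), Mcm5 (0.143), Sphk1 (0.148) and Gmnn (0.150). The measure was the Euclidean distance between log2 CPM profiles centred per gene, over the 10790 genes that averaged 10 CPM or more. By the same measure Mthfd1 ranked 658, Slc19a1 731, Fpgs 1038, Atic 1621, Mtr 2116, Ggh 6289 and Shmt1 7012. None of the other 7 genes was therefore among the 5 nearest profiles. With groups this far apart, the distance mostly reflects how close a gene's fold change is to that of Tyms. The 5 nearest genes had folds from 15.8 (Mcm5) to 17.1 (Gmnn), beside 16.2 for Tyms. The ranks of the other 7 repeat the order of their fold changes and are not separate support.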

How the data were processed

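Polyadenylated RNA was sequenced as paired reads of 75 bp, per the labels' protocols, in 3 elemental diet and 3 saline libraries, grouped by the diet label. Per the file headers, the authors gave whole-number read counts per gene (total, unique, exon and intron), which were analysed as deposited; total reads equalled exon plus intron reads in all rows. The deposited TPM values, also made by the authors, were used for levels between genes. The deposited RPKM column and the deposited fraction column were not used. The submitters' processing notes name GRCh37 and GRCm38; coordinates printed for genes are those of the files, on GRCm38. Aligner, counting tool and use of strand: not given in the sources used here.

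Counts were fitted over all 18303 genes kept by filterByExpr with edgeR 4.0.16 in R 4.3.3 (TMM scaling, robust glmQLFit, glmQLFTest, two-sided, Benjamini-Hochberg at 0.05; glmTreat for the 1.5-fold minimum). CPM values carry the TMM factors. The common biological coefficient of variation was 8.26%. Intervals use 95% t quantiles. Replicates of a group differed by a median chi-square of 2.82 to 5.23 times sampling noise, more than 1 library sequenced again would give. Each was treated as 1 sample, although this spread does not show that they come from different mice. Ratios and intron shares were tested with exact permutation tests. Library totals of 29053287 to 33073125 reads limit the precision of low genes such as Ggh.

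Alternatives were RLE, upper quartile and library total scaling, no low count filter, unique reads, exon reads, DESeq2 1.42.0, limma 3.58.1 on log2(TPM + 0.5), a replicate block and leaving out each library. The members and lists were chosen with earlier results of these data known. Values were named for all 8 genes and for the 3 genes with the smallest p of each pathway list. They were also named for the 5 profiles nearest to Tyms. Marker lists were given as sums and counts, with the range of folds for cell division. The overlapping gene Col18a1, the scaling-dependent genes, Pcna and Ccna2 were named after their values were seen. Some genes of the lists are counted but not reported here by name.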

Additional observations from a re-analysis of the deposited data

How the results depend on the processing

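The 6 rises (Tyms, Mthfd1, Slc19a1, Fpgs, Atic and Mtr) kept their direction and stayed past the adjusted p threshold under every alternative run, in edgeR, DESeq2 or limma, and 6 were past the 1.5-fold minimum in each alternative where that was computed. The number of the 8 genes called lower was 1 in the main analysis. It was 0 with RLE scaling, 0 with exon reads and 0 with DESeq2, and 2 with upper quartile scaling, 2 with library totals and 2 with limma on log2 TPM. Leaving out 1 library gave 0 to 1, with 0 without elemental diet replicate 3 or saline replicate 1. The log2 fold change of Ggh, -0.02 in the main analysis, changed sign with RLE scaling (0.025) and with DESeq2 (0.025), and ranged from -0.050 to 0.0072 when 1 library was left out, the positive value being without saline replicate 2. With unique reads the intron share difference of Mthfd1 was -11.1 percentage points in place of -12.0. With the replicate number as a block 7 of the 8 genes were called, 6 higher and 1 lower, 6 past 1.5-fold, and 14241 genes in all against 14303 without it. The numbers share no stated batch: same-numbered libraries' deviations correlated at 0.117, -0.00799 and 0.0578, and not every library correlated best with its own number. The scaling moved the median of all genes from -0.08 to -0.04 (RLE), -0.35 (upper quartile) and -0.39 (library totals), so small differences such as those of Ggh and Shmt1 rest on it. The causes of these shifts were not tested. Ggh had 290 to 408 reads per library and Shmt1 463 to 829, which limits the precision of their small differences.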
